A study of Mus musculus with 4 samples.

Results

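The RIKEN 49-series protein-coding genes are mouse genes that still carry the name of a cDNA clone from the RIKEN testis libraries. They were taken as the protein-coding features of the deposited table whose symbol starts with 4921, 4930, 4931, 4932 or 4933 and ends with Rik, which gave 118 genes of 18287 protein-coding features and 31600 features in all. Total RNA of mouse cells labelled spermatogonial stem cells, which maintain the germline of the testis, was sequenced after depletion of ribosomal RNA. The differentiation group (2 libraries) carries the entry Differentiation in the genotype field of the labels, and the control group (2 libraries) carries the entry WT there. The sources used here do not give the way or the time of differentiation, or the strain or age of the animals. No label states that replicate libraries are separate cultures or animals, so the p-values measure the spread between these libraries, which may be technical.

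RIKEN sequenced full-length mouse cDNAs from many tissues and named each new gene by its clone until a function or a relative was found. The testis gave a large share of such placeholders, because spermatocytes and spermatids transcribe many genes that other tissues do not. A clone name records the library in which a cDNA was found, and it says nothing of what the gene does or of where else it is used. By the RefSeq gene table for GRCm38.p6, 110 of the 118 genes could be found and 18 of them now have another symbol. The 118 genes cover several known roles, among them synaptonemal complex and recombination proteins, cilium and flagellum proteins, ankyrin repeat proteins and relatives of general transcription factors. The merged exons ranged from 331 to 32279 bases with a median of 2017, and 20 genes had a single exon in GENCODE M21.

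For genes that rose in differentiation the 250 bases before the RefSeq start are shown, since this is where a shared short sequence could lie. Capitals mark TGACGT, the core of a cAMP response element, GTTGCC, the core of the X-box bound by RFX factors, and GGCNGTT, a core of the A-MYB motif, on either strand, so that GTTGCC also appears as GGCAAC and GGCNGTT as AACNGCC. The marked matches below do not overlap each other. All are from RefSeq, build GRCm38.p6, and are written along the strand of the gene. The first is the gene with the largest increase and holds none of these letters. The others are raised genes with a match, chosen after their values were seen, and the position of each match is counted back from the start, the base before it being -1. For 4930430A15Rik the more downstream of its RefSeq starts was used.
4930544G11Rik, chr6:65952321-65952570, plus strand: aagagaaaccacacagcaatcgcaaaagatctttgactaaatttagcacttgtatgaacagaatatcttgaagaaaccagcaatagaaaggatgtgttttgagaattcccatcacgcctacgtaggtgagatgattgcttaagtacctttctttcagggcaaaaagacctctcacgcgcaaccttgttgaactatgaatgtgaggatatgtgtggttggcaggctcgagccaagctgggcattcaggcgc
4930430A15Rik, chr2:111229601-111229850, minus strand: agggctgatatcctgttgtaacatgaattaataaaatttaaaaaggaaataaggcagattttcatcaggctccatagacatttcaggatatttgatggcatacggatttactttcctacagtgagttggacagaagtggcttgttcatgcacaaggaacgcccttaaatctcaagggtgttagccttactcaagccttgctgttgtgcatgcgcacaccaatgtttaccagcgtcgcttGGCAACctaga
4921536K21Rik, chr11:3895127-3895376, minus strand: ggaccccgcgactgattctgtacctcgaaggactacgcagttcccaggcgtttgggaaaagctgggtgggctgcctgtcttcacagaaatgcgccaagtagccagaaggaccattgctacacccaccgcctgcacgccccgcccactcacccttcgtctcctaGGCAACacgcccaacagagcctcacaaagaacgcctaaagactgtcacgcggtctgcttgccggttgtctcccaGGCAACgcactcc
4931428L18Rik, chr1:31222657-31222906, minus strand: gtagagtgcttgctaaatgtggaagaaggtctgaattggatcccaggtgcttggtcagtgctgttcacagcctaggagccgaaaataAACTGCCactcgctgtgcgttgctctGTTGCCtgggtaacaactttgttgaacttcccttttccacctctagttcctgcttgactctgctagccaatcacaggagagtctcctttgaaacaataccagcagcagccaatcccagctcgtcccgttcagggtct
4933416C03Rik, chr10:116113918-116114167, minus strand: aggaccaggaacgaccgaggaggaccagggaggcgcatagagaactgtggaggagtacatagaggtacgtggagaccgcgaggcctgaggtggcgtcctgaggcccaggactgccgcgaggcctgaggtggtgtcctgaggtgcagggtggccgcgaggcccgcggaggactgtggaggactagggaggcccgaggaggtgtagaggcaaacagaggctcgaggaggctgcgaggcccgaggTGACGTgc

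The comparison asked which of these genes differ between the differentiation and the control libraries. The deposited values are FPKM, sequenced fragments per exonic length and per library depth. From the steps between low FPKM values, the depth was 17772000 and 20363300 fragments in the differentiation libraries and 19461600 and 20650100 in the control libraries. A gene was tested with limma on log2(FPKM + 1) where its mean over the 4 libraries was at least 0.5 FPKM, and it was called at a Benjamini-Hochberg adjusted p under 0.05 over all 23138 features tested. Log2 fold changes, also called log2 differences below, are on the log2(FPKM + 1) scale, differentiation over control, which understates the change of low genes.

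Most of the genes that could be called were higher in differentiation. Of the 118 genes, 46 rose, 6 fell, 24 were tested without a call and 42 were below the filter. Over all features tested, limma called 29.6% higher and 27.0% lower, and over the protein-coding features 32.5% higher and 34.0% lower. The median log2 fold change was 0.67 over the 76 tested members and 0.01 over all features tested. A gene absent from control can pass the filter only by being high in differentiation, so the same fit was run without a filter on all 118. It called 59 higher and 6 lower, where 23.9% and 21.0% of all features were called in each direction, and the median log2 fold change was 0.36 against 0.01 over the whole table. In the authors' deposited table, 59 of the 118 were higher and 6 lower at an adjusted p under 0.05, against 22.0% and 20.3% of all features, and 45 of the 46 rises and all 6 falls found by limma were among them. Both tables rest on the same libraries.

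The summed level of the 118 genes was 547 and 554 FPKM in the differentiation libraries and 228 and 236 FPKM in the control libraries. Their median level was 1.49 and 1.46 FPKM in the differentiation libraries and 0.386 and 0.393 FPKM in the control libraries. A mean of at least 10 FPKM was reached by 20 of the genes in differentiation and by 4 in control. The groups did not overlap in 67 of the 76 tested members, with differentiation above control in 55 and below it in 12, where 40.9% and 39.1% of all features tested were arranged so. Of the 46 rises, 38 were at least 2-fold and 25 at least 4-fold by the ratio of the group means, and of the 6 falls 2 were at least 2-fold and 0 at least 4-fold. Features called higher with a ratio of at least 4 made up 32.9% of the tested members and 6.82% of all features tested. The share of all features was not counted for the 2-fold rises or for the falls, so those counts cannot be set against it. In bulk RNA, more cells of a type and more RNA per cell cannot be told apart.

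**Figure D1:**
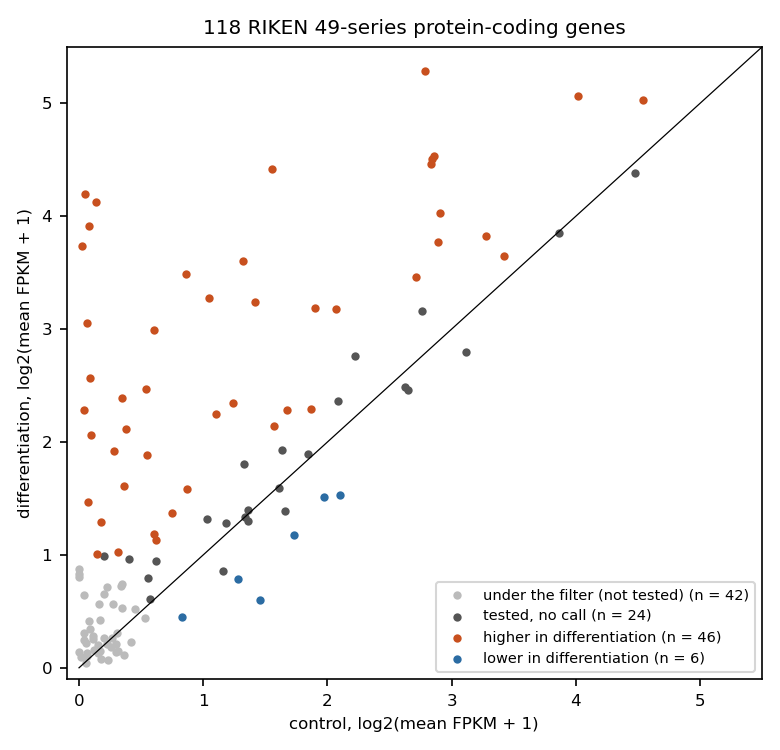
Mean FPKM of each of the 118 genes in differentiation (vertical axis) against control (horizontal axis), both as log2(mean FPKM + 1), where points above the line are higher in differentiation. The 46 genes called higher include a column of points at the left edge that were near 0 in control, while the 6 called lower lie close to the line.

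Markers of the labelled cell type and of other testis cells were measured in the same libraries. All 9 markers of undifferentiated spermatogonia were detected, and 7 of them fell and 1 rose. Their summed level was 44.0 and 44.7 FPKM in the differentiation libraries against 130 and 133 FPKM in the control libraries. All 6 markers of differentiating spermatogonia fell, with sums of 185 and 188 FPKM in differentiation against 388 and 381 FPKM in control. Of 19 meiotic prophase markers 18 rose and 0 fell, with sums of 996 and 1012 FPKM in differentiation against 269 and 273 FPKM in control. Of 20 spermatid markers 19 were in the table, 14 were tested, 9 rose and 0 fell, with sums of 76.7 and 75.7 FPKM in differentiation against 23.1 and 20.2 FPKM in control. Fibroblast and peritubular markers fell in 8 of 9, with sums of 73.1 and 68.0 FPKM in differentiation against 212 and 214 FPKM in control, and macrophage and leukocyte markers fell in 4 of the 5 tested, with sums of 15.7 and 14.9 FPKM in differentiation against 53.6 and 50.8 FPKM in control. Of the 7 tested Sertoli markers 2 rose and 3 fell, with sums of 92.1 and 83.6 FPKM in differentiation against 89.9 and 90.5 FPKM in control, and both red cell markers fell, with sums of 100.3 and 90.4 FPKM in differentiation against 504 and 497 FPKM in control. Of the 4 tested Leydig markers 1 rose and 2 fell, with sums of 21.3 and 20.9 FPKM in differentiation against 37.1 and 38.2 FPKM in control, and of 4 endothelial markers 1 fell, with sums of 6.69 and 6.91 FPKM in differentiation against 12.4 and 12.4 FPKM in control. No marker in the table was listed at 0 in both libraries of a group. The part of these cell types in the changes of the 49-series genes was not tested.

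The largest increases were in genes that were close to absent from control. 4930544G11Rik (ENSMUSG00000036463, GRCm38 chr6:65952609-65954014, plus strand, a single exon of 1406 bases) had 17.6 and 17.1 FPKM in the differentiation libraries and 0.0365 and 0.0344 FPKM in the control libraries. Both differentiation libraries were far above both control libraries, with 439 and 490 fragments in differentiation and 1 fragment in each control library. The log2 fold change was 4.15 (SE 0.07; limma adjusted p = 8.85e-05), and the ratio of fragments per library depth was 489 with a 95% counting interval of 135 to 4040. This interval and those below are exact binomial (Clopper-Pearson) and cover counting error only. The files and reference tables give no role for this gene.

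4933415F23Rik (ENSMUSG00000073730, GRCm38 chr1:23100473-23102253, minus strand, a single exon of 1781 bases) is now named Ppp1r14bl, a relative of the protein phosphatase inhibitor gene Ppp1r14b. It had 17.2 and 15.9 FPKM in differentiation against 0.144 and 0.0544 FPKM in control, with no overlap, and a log2 difference of 3.99 (SE 0.09; limma adjusted p = 1.11e-04). The relative Ppp1r14b had 22.2 and 19.2 FPKM in differentiation and 35.5 and 37.0 FPKM in control, and a log2 difference of -0.78 (limma adjusted p = 2.21e-03), so it fell where 4933415F23Rik rose. The sources used here do not say how reads were divided between similar copies.

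4930430A15Rik, now A26c3 of the POTE ankyrin family, had 13.3 and 14.9 FPKM in differentiation, against a value of 0 and 0.119 FPKM in control. Its log2 fold change was 3.83 (SE 0.11; limma adjusted p = 1.46e-04), from 577 and 739 fragments in differentiation and 0 and 6 in control. A second gene of that family on the same chromosome, 4931423N10Rik (now Potegl), was already present in control. It had 4.04 and 4.12 FPKM in differentiation against 1.54 and 1.18 FPKM in control, and a log2 difference of 1.11 (SE 0.11; limma adjusted p = 2.29e-03). The ankyrin repeat gene 4931440F15Rik (now Fem1al), named for FEM1, a substrate receptor of cullin ubiquitin ligases, stayed below the filter with 0.189 and 0.0900 FPKM in differentiation and 0.141 and 0.251 FPKM in control.

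Both genes of a neighbouring pair on chromosome 2 rose. 4933409G03Rik (GRCm38 chr2:68582413-68616463, plus strand) had 11.6 and 13.0 FPKM in differentiation, and was listed at 0 and at 0.0356 FPKM in control. It had 297 and 381 fragments in differentiation and a single one in control, a depth-scaled ratio of 713 with a 95% counting interval of 128 to 28208. The next gene of the series on that strand, 4932414N04Rik (chr2:68656486-68748467), begins 40022 bases further on. It had 3.60 and 4.16 FPKM in differentiation and 0.0118 and 0.0445 FPKM in control, with log2 fold changes of 3.71 for 4933409G03Rik and 2.25 for 4932414N04Rik (limma adjusted p = 1.30e-04 and 3.84e-04). Of 6 neighbouring pairs of the series that lay within 200000 bases of each other, this was the only pair in which both genes rose. Of all tested members 60.5% were called higher, and of all features tested 29.6%. In another pair 4930438A08Rik was below the filter and not tested. The share of such pairs over all features was not counted, so the pair is a description of 1 place.

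4931417E11Rik, a single-exon gene on chromosome 6, had 6.22 and 8.39 FPKM in differentiation, against 0.0939 FPKM and a value of 0 in control. Its 121 and 187 fragments in differentiation faced 2 and 0 in control, a depth-scaled ratio of 162 with a counting interval of 44.5 to 1344, and the log2 fold change was 2.98 (SE 0.16; limma adjusted p = 5.16e-04). 4933414I15Rik on chromosome 11 had 4.68 and 5.21 FPKM in differentiation against 0.0438 and 0.0825 FPKM in control, and a log2 difference of 2.48 (SE 0.10; limma adjusted p = 2.71e-04). Neither gene has an annotated role in the tables used here. 

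A further set of genes was present in control and rose several-fold. 4930524B15Rik had 20.8 and 19.9 FPKM in differentiation against 1.90 and 1.96 FPKM in control, and 4921536K21Rik had 10.02 and 10.4 FPKM in differentiation against 0.833 and 0.804 FPKM in control. Their log2 fold changes were 2.87 and 2.62 (SE 0.05 and 0.07; limma adjusted p = 9.05e-05 and 1.42e-04), and in both genes the libraries of a group lay close together. 4931422A03Rik had 11.6 and 10.7 FPKM in differentiation and 1.54 and 1.45 FPKM in control, and a log2 difference of 2.28 (limma adjusted p = 1.78e-04). Of its 1602 exonic bases 190 are shared with Fbxo3 on the opposite strand, which rose by 2.25 on the log2 scale, and the sources used here do not say whether reads were counted by strand. 4931428L18Rik had 6.76 and 7.16 FPKM in differentiation against 0.407 and 0.639 FPKM in control, and a log2 difference of 2.39 (limma adjusted p = 3.74e-04). It shares 280 of 3751 exonic bases with the opposite-strand gene Lgsn, which rose by 2.27, and starts 154 bases from the start of Pih1d3, which runs the other way and rose by 2.44 on the log2 scale.

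**Figure D2:**
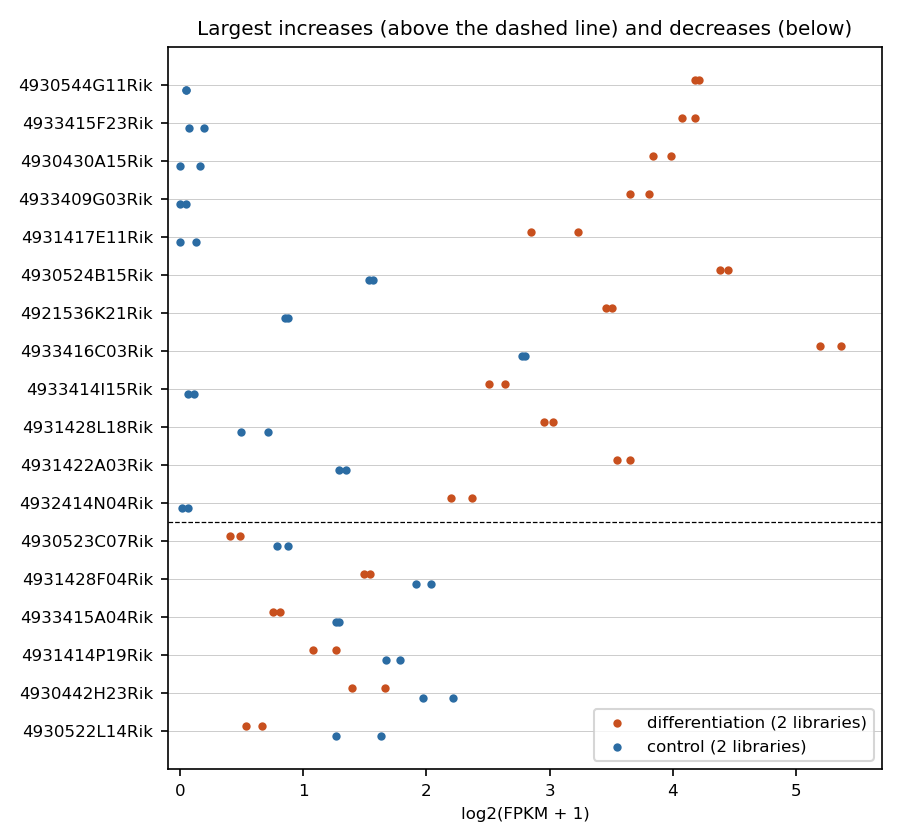
log2(FPKM + 1) in each library (points) for the 12 genes with the largest called increase and, below the dashed line, the 6 genes called lower, with 2 differentiation and 2 control libraries per gene. Genes were listed only where the groups did not overlap, so in the 12 rises both differentiation points lie to the right of both control points. By the same rule they lie to the left in the 6 falls.

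The genes of the series with the highest levels were mostly ones already expressed in control. 4933416C03Rik, now Taf7l2, a relative of the TFIID subunit TAF7 with a single exon, reached the highest level of the series in differentiation. It had 35.7 and 40.2 FPKM there against 5.97 and 5.84 FPKM in control, and a log2 difference of 2.49 (SE 0.07; limma adjusted p = 1.40e-04). Taf7, the widely expressed subunit gene, had 13.2 and 13.4 FPKM in differentiation and 18.5 and 18.8 FPKM in control and fell by 0.46 on the log2 scale. Taf7l, the germ cell relative on the X chromosome, had 81.4 and 83.2 FPKM in differentiation and 87.4 and 81.4 FPKM in control, with no call (limma adjusted p = 0.540). Exons of 4933416C03Rik share 650 of 2254 bases with Ptprr on the opposite strand, which rose by 1.48 on the log2 scale.

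4930503L19Rik, 4930579G24Rik and 4921524J17Rik moved by similar amounts. 4930503L19Rik had 21.6 and 22.6 FPKM in differentiation and 5.91 and 6.61 FPKM in control. 4930579G24Rik had 21.3 and 22.2 FPKM in differentiation and 6.31 and 5.998 FPKM in control. 4921524J17Rik had 21.2 and 20.9 FPKM in differentiation and 6.09 and 6.20 FPKM in control. Their log2 fold changes were 1.67, 1.67 and 1.63 (SE 0.06, 0.05 and 0.04; limma adjusted p = 2.35e-04, 1.50e-04 and 1.15e-04), and no role is annotated for them in the tables used here. Each shares exonic bases with an opposite-strand gene: 56 of 5967 for 4930503L19Rik with Stard6, which rose by 2.98, 278 of 1970 for 4930579G24Rik with Etfdh, which had no call at -0.04, and 148 of 1679 for 4921524J17Rik with 1700051O22Rik, which rose by 1.62 on the log2 scale.

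The members with a role in meiosis were high in both groups. 4930447C04Rik (Six6os1, ENSMUSG00000021098, GRCm38 chr12:72881109-72940774, minus strand) encodes a central element protein of the synaptonemal complex, the structure that joins homologous chromosomes in meiotic prophase. It had 30.7 and 32.6 FPKM in differentiation and 22.3 and 22.4 FPKM in control, the highest mean of the series in control. The rise was larger than the spread between libraries, at a log2 difference of 0.48 (SE 0.04; limma adjusted p = 1.50e-03). 4930432K21Rik (Brme1), a meiotic recombination factor that works with HSF2BP and BRCA2, had 9.45 and 10.6 FPKM in differentiation against 5.08 and 6.04 FPKM in control, and a log2 difference of 0.75 (SE 0.10; limma adjusted p = 5.22e-03). Both changes were smaller than the median of the meiotic prophase markers, 1.44 on the log2 scale.

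Of 4 genes named for cilia, flagella or centrioles, 2 rose and 2 had no call. 4933427D14Rik (Kiaa0753), a protein of centrioles and centriolar satellites, had 7.87 and 8.26 FPKM in differentiation and 3.34 and 3.06 FPKM in control, and a log2 difference of 1.11 (SE 0.07; limma adjusted p = 6.70e-04). 4932443I19Rik (now Cfap97d2) had 1.92 and 2.07 FPKM in differentiation against 0.824 and 0.827 FPKM in control, and a log2 difference of 0.71 (SE 0.09; limma adjusted p = 4.88e-03). 4930452B06Rik (now Cfap20dc), with a CFAP20 domain, had 2.13 and 1.90 FPKM in differentiation and 1.97 and 2.14 FPKM in control (limma adjusted p = 0.869). 4931409K22Rik (now Iqca1l), named for an IQ motif and an AAA domain, had 1.30 and 1.63 FPKM in differentiation and 1.71 and 1.44 FPKM in control (limma adjusted p = 0.701). In both the groups overlapped.

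Among genes named for enzymes, surface proteins and chromatin, 4933408B17Rik (now Brd8dc) had 8.65 and 8.74 FPKM in differentiation and 0.908 and 1.21 FPKM in control, and a log2 difference of 2.24 (limma adjusted p = 3.41e-04). 4933425L06Rik (now Nt5el), a relative of the nucleotidase gene Nt5e, had 8.35 and 7.83 FPKM in differentiation and 2.48 and 2.99 FPKM in control, and a log2 difference of 1.29 (limma adjusted p = 1.04e-03), while Nt5e had -0.25 (limma adjusted p = 0.0173). 4930504O13Rik (now Lypd9), of the LY6/PLAUR domain family, had 3.59 and 4.92 FPKM in differentiation against 0.281 and 0.265 FPKM in control, on 35 and 55 fragments in differentiation against 3 and 3 in control, and a log2 difference of 2.03 (limma adjusted p = 1.17e-03). All of these rose with no overlap between the groups. 4930539E08Rik (now Bnip5) had 1.55 and 1.44 FPKM in differentiation and 1.19 and 0.886 FPKM in control, with no call by limma (adjusted p = 0.106) and a call by limma-voom on recovered fragments (adjusted p = 0.0146). 4933406M09Rik (now Mgat4f), of an N-acetylglucosaminyltransferase family, was below the filter with 0.159 and 0.278 FPKM in differentiation and 0.0581 and 0.110 FPKM in control. 4921501E09Rik (now Phf8-ps), a sequence related to the demethylase gene Phf8, had 0.115 and 0.0878 FPKM in differentiation, from 8 and 7 fragments, and 0 fragments in control. Its ratio to a floor of 3 fragments over both control libraries was 5.26, which leaves out counting error in differentiation. The fit without a filter did not call it (limma adjusted p = 0.0574).

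Some members have roles in general cell biology, among them 4931414P19Rik, which fell and is described with the falls below. 4932438A13Rik (Kiaa1109), a bridge-like lipid transfer protein with 32279 exonic bases, had 32.1 and 32.7 FPKM in differentiation and 15.2 and 15.2 FPKM in control. Its log2 fold change of 1.05 (with SE 0.03; limma adjusted p = 1.53e-04) rested on 18437 and 21496 fragments in differentiation and 9523 and 10142 in control, the largest numbers of the series. 4931406P16Rik (now Garre1), an effector of the small GTPase RAC1, had 19.8 and 20.1 FPKM in differentiation and 21.1 and 21.5 FPKM in control. Its groups did not overlap, but the log2 fold change of -0.09 did not pass (SE 0.03; limma adjusted p = 0.0648). It passed after quantile normalization and median centring and with limma-voom (adjusted p = 5.18e-03, 0.0123 and 7.70e-03). 4933434E20Rik (NICE-3), a membrane protein, had 11.4 and 11.6 FPKM in differentiation and 9.51 and 9.88 FPKM in control, and a log2 difference of 0.23 (limma adjusted p = 0.0131) that was lost without control replicate 1 or either differentiation replicate (adjusted p = 0.0633, 0.0594 and 0.0706) and after quantile normalization (adjusted p = 0.0900). 4930402H24Rik, whose role is not annotated in the tables used here, had 13.4 and 12.9 FPKM in differentiation and 8.79 and 8.64 FPKM in control, and a log2 difference of 0.54 (limma adjusted p = 1.24e-03). 4931406C07Rik, whose role is likewise not annotated there, had 2.60 and 3.04 FPKM in differentiation and 2.30 and 1.91 FPKM in control. It had no call by limma (adjusted p = 0.0954) and a call by limma-voom (adjusted p = 6.70e-04).

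**Figure D3:**
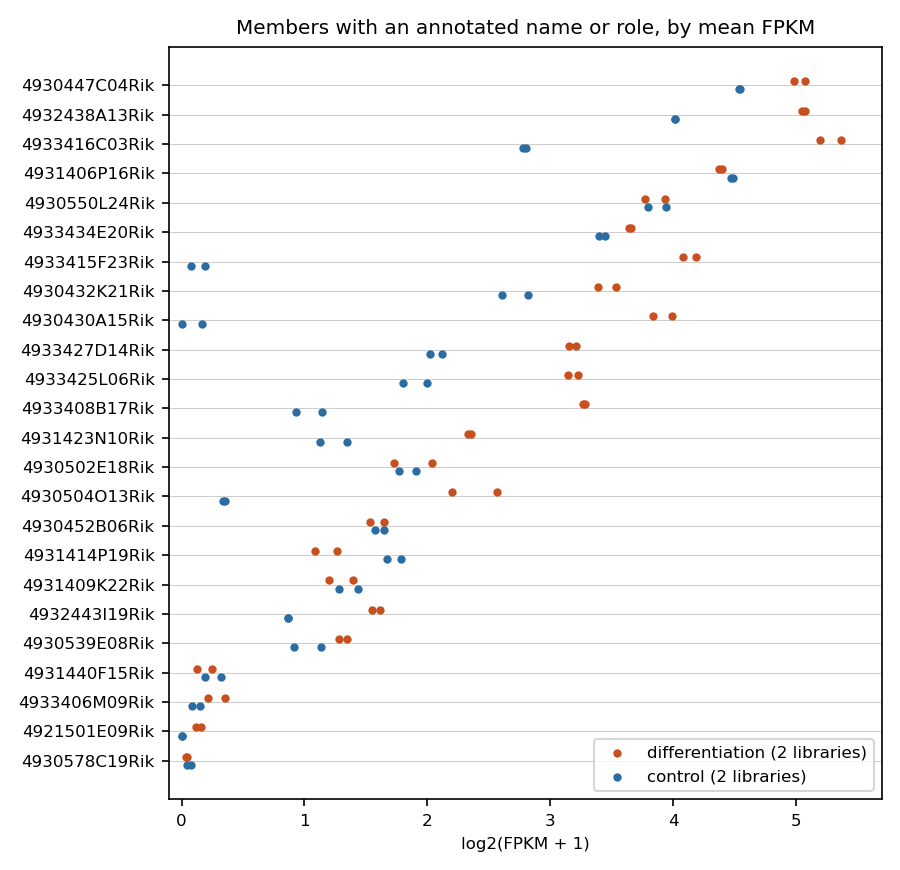
log2(FPKM + 1) in each library (points) for the 24 members with an annotated name or role, ordered from the highest to the lowest mean over the 4 libraries. Differentiation lies to the right of control in genes such as 4933415F23Rik and 4933416C03Rik, while 4930550L24Rik and 4930452B06Rik overlap.

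All 6 falls were in genes at or below 3.66 FPKM in every library, where the log2(FPKM + 1) scale understates the change. The ratio of the group means ran from 0.295 for 4930522L14Rik to 0.633 for 4931428F04Rik. The largest fall was in 4930522L14Rik, which had 0.584 and 0.448 FPKM in differentiation against 2.09 and 1.41 FPKM in control, and a log2 difference of -0.85 (SE 0.16; limma adjusted p = 0.0139). 4930442H23Rik had 1.63 and 2.17 FPKM in differentiation and 2.93 and 3.66 FPKM in control, and a log2 difference of -0.57 (SE 0.15; limma adjusted p = 0.0347). It shares 212 of 1245 exonic bases with Dapk3 on the opposite strand, which fell by 0.78 on the log2 scale. 4931414P19Rik (Rtfc) had 1.41 and 1.12 FPKM in differentiation and 2.19 and 2.45 FPKM in control, and its log2 fold change was -0.56 (SE 0.12; limma adjusted p = 0.0182). These 3 genes showed no overlap between the groups.

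4933415A04Rik, 4931428F04Rik and 4930523C07Rik had log2 fold changes of -0.50, -0.46 and -0.39 (SE 0.09, 0.09 and 0.10; limma adjusted p = 0.0137, 0.0167 and 0.0319). 4933415A04Rik had 0.756 and 0.684 FPKM in differentiation against 1.41 and 1.45 FPKM in control. 4931428F04Rik had 1.81 and 1.91 FPKM in differentiation against 2.77 and 3.10 FPKM in control. 4930523C07Rik had 0.397 and 0.328 FPKM in differentiation against 0.837 and 0.727 FPKM in control. In all 3 the groups did not overlap. 4931428F04Rik shares up to 1531 of 4045 exonic bases with opposite-strand genes that include Nol3, and 4930523C07Rik shares 601 of 10195 with 4930562F07Rik on the opposite strand, which fell by 0.98 on the log2 scale. None of the 6 falls was called in all 4 fits that left out 1 library: 4930522L14Rik was lost without either differentiation replicate (limma adjusted p = 0.0670 and 0.0870), 4931414P19Rik and 4933415A04Rik were called only without differentiation replicate 1 (limma adjusted p = 0.0459 and 0.0480), and the other 3 were lost in each such fit (limma adjusted p from 0.0506 to 0.139). On recovered fragments, limma-voom called all 6, with log2 fold changes from -1.76 to -0.68. Most of the 46 rises kept their call in all 4 fits that left out 1 library. The share of all features that did so was not counted in either direction, so the members cannot be set against it. The 6 others were 4930404H24Rik, 4930548H24Rik, 4930550C14Rik, 4930563M21Rik, 4933405L10Rik and 4933434E20Rik, named after their values were seen, with log2 fold changes of at most 0.63 in the fit of all 4 libraries. 4930404H24Rik was lost without control replicate 1 (limma adjusted p = 0.0539), 4930550C14Rik without either control replicate (0.0581 and 0.0638) and 4933405L10Rik without either differentiation replicate (0.0662 and 0.0868). 4930548H24Rik was called only without control replicate 1, with limma adjusted p of up to 0.0804 otherwise, 4930563M21Rik only without differentiation replicate 1 (up to 0.0985) and 4933434E20Rik only without control replicate 2 (up to 0.0706). limma-voom called 45 of the 46 rises, all but 4930404H24Rik, which had 20 fragments in differentiation and 9 in control (adjusted p = 0.123), where 31.0% of all features were called higher and 31.4% lower.

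The members were also split by their mean level over the 4 libraries, which includes the change itself, so that a gene that rose can lie in a higher group because it rose. At a mean of at least 5 FPKM, 21 of 25 members rose and 0 fell, where 38.8% and 32.8% of all features at that level were called higher and lower. Between 1 and 5 FPKM 19 of 39 rose and 5 fell, against 24.6% and 25.4% of all features. Between 0.5 and 1 FPKM 6 of 12 rose and 1 fell, against 19.2% and 16.5% of all features. The medians of the log2 fold change were 1.29, 0.49 and 0.56 from the highest level to the lowest. This split is a description, and no difference between the levels was tested.

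Sex chromosomes are silenced in pachytene spermatocytes, while many X-linked genes are transcribed in spermatogonia. Of all 764 X-linked features tested, 92 were called higher and 348 lower, with a median log2 fold change of -0.31. Of the 10 members on the X chromosome 4 were tested, of which 1 rose, 0 fell and 3 had no call, against 45 rises and 6 falls among the 72 tested autosomal members. The difference between the chromosomes was not tested. 4930550L24Rik (mage-k1), of the MAGE family of germ cell antigens, had 14.3 and 12.7 FPKM in differentiation and 14.4 and 12.9 FPKM in control, so the groups overlapped (log2 fold change -0.01, SE 0.08; limma adjusted p = 0.900). 4930502E18Rik (now Ct55), a cancer/testis antigen, had 3.12 and 2.31 FPKM in differentiation and 2.41 and 2.75 FPKM in control, also with overlap (limma adjusted p = 0.812).

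4933403O08Rik had 4.57 and 4.62 FPKM in differentiation and 5.14 and 5.22 FPKM in control, a log2 fold change of -0.14 without a call (limma adjusted p = 0.105). The X-linked gene that rose was 4933402E13Rik, which had 2.92 and 2.45 FPKM in differentiation against 0.279 and 0.646 FPKM in control, and a log2 difference of 1.34 (SE 0.17; limma adjusted p = 4.26e-03). 4930595M18Rik was below the filter, with 0.660 and 1.00 FPKM in differentiation from 31 and 54 fragments, and 0 fragments in either control library. Its ratio to a floor of 3 fragments over both control libraries was 29.8, which leaves out counting error in differentiation. The fit without a filter called it (limma adjusted p = 5.48e-03). The other 5 had at most 16 fragments over the libraries of a group. Each of them had fewer fragments in differentiation than in control, and the fit without a filter called none. Among them was 4930578C19Rik (now Dipk2b, of a divergent protein kinase family) with 4 fragments in differentiation and 6 in control. 4933403O08Rik, 4933402E13Rik and 4930595M18Rik were named after their values were seen.

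**Figure D4:**
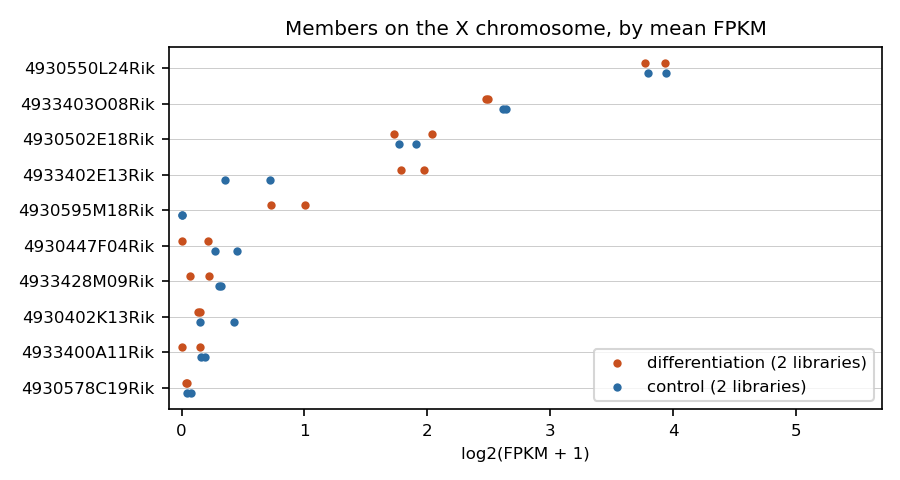
log2(FPKM + 1) in each library (points) for the 10 members on the X chromosome, ordered by mean over the 4 libraries. Differentiation stands clear to the right of control in 4933402E13Rik and 4930595M18Rik, and the 3 most abundant genes differ little between the groups.

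The 42 members below the filter had means from 0.0362 to 0.471 FPKM over the 4 libraries. Their median number of fragments was 15 over the differentiation libraries and 8 over the control libraries. The differentiation mean was above the control mean in 29 of the 42. The groups did not overlap in 25, with differentiation above control in 21 and below it in 4, where 32.2% and 27.9% of all features below the filter were arranged so. Without a filter limma called 13 of the 42 higher and 0 lower, against 11.2% and 8.26% of all features below the filter. Besides 4930595M18Rik and 4921501E09Rik, the genes without a fragment in control were 4930564D02Rik and 4933402N22Rik, named after their values were seen, with 22 and 33 fragments in differentiation. Their ratios to the floor of 3 fragments were 7.71 and 11.6, which leave out counting error in differentiation. No member was listed at 0 in both differentiation libraries.

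Among the 118 genes, 39 share exonic bases with another gene in GENCODE M21, 34 of them with a gene on the opposite strand. Of the 79 genes without such an overlap 47 were tested, of which 30 rose and 3 fell, with a median log2 fold change of 0.87. Of the 29 tested genes with an overlap 16 rose and 3 fell, with a median of 0.54. Over all features tested, with or without an overlap, 29.6% were called higher and 27.0% lower. These shares were not counted by overlap, and the difference between the members with and without an overlap was not tested. 4930404N11Rik, named after its values were seen, had 13.0 and 12.4 FPKM in differentiation and 6.13 and 6.69 FPKM in control, with no overlap. Of its exons 1179 of 1751 bases are shared with Mfsd12 on the opposite strand, and the member and Mfsd12 rose by 0.88 and 0.82 on the log2 scale, which cannot be told apart without strand. A start within 1000 bases of an oppositely directed start was found for 19 members, and for 15 of them both genes were tested. Both genes rose in 6 of these pairs, where 60.5% of all tested members and 29.6% of all features tested were called higher. The share of such pairs over all features was not counted. Among the 6, 4921524J17Rik and 1700051O22Rik share exonic bases, as do 4930503L19Rik and Stard6. On those bases the reads of the genes cannot be told apart without strand. The member rose and its partner fell in 1 pair, Brme1 and Cc2d1a (log2 fold changes of 0.75 and -0.34). In 2 pairs the member rose without a call of its partner.

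RefSeq start windows were available for 90 of the 118 genes (250 bases before to 50 after the start, both strands searched for the exact letters). GTTGCC was found in 17 of the 90 genes, or 18.9%, against 14.1% of all 27025 genes with a window. Among the 38 genes called higher it was found in 10 (26.3%), and among the other 52 in 7 (13.5%). The other 52 include members below the filter, which the main fit did not test. Of all 42 members below the filter, the fit without a filter called 13 higher. So the 52 are not a set of genes that did not rise, and the difference was not tested. GGCNGTT was found in 18 of the 90 genes and 13.6% of all genes, with 13.2% of the 38 called higher and 25.0% of the other 52. TGACGT was found in 7.78% of the 90 and 8.37% of all, the E-box CACGTG in 9 of the 90 and 8.09% of all, with 5.26% of the 38 called higher and 13.5% of the other 52, and the E2F word GCGGGAA in 5.56% and 5.29%. The median GC content of the windows was 51.0% for the 49-series genes and 52.7% for all windows. In the sequences printed above, GTTGCC lies at position -11 of 4930430A15Rik, at -87 and -13 of 4921536K21Rik and at -137 of 4931428L18Rik, GGCNGTT at -163 of 4931428L18Rik, and TGACGT at -8 of 4933416C03Rik. These matches are a description of the letters.

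Features with similar names give a frame for these counts, as a description without a test. Of 95 protein-coding genes named for the 1700 series of RIKEN testis clones, 73 were tested, of which 63.0% rose and 1.37% fell, with a median log2 fold change of 0.89. Of 417 features of other biotypes in the 49 series, 237 were tested, of which 50.6% rose and 12.2% fell, with a median of 0.38. The 49-series protein-coding genes had 60.5% and 7.89%, and the other 14248 protein-coding features tested had 32.2% and 34.3%, with a median of -0.03. Typical levels also differed. The median over genes of the group mean was 1.48 FPKM in differentiation and 0.408 FPKM in control for the 49-series protein-coding genes, and 3.37 FPKM in each group for the other protein-coding features.

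**Figure D5:**
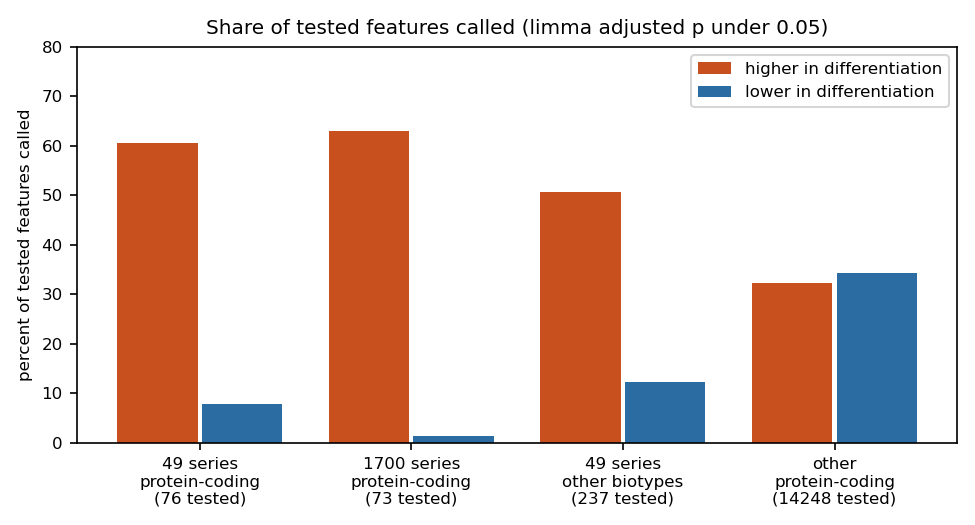
Percent of tested features called higher (left bar) and lower (right bar) in differentiation by limma at an adjusted p under 0.05, for 4 groups of features defined by name and biotype. The 49-series protein-coding genes stand at 60.5% higher and 7.89% lower, and the other protein-coding features at 32.2% and 34.3%.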

How the data were processed

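RNA of 2 differentiation and 2 control libraries was measured. Per the submitters' processing notes, HISAT2 and the GRCm38 build were used. The sources used here name no counting tool, annotation or strand setting. The deposited table holds an FPKM value for each feature in each library, computed by the authors, with their log2 fold change, p-value and adjusted p from a test the sources used here do not name. FPKM was multiplied by merged exonic length in GENCODE M21 (31536 of 31600 identifiers matched), and a scale per library was fitted at which low values became whole fragments, which held within 0.05 fragments for 96.2% of features under 300 fragments in each library.

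The main test was limma 3.58.1 (R 4.3.3) with an intensity trend on log2(FPKM + 1), group as the term, two-sided, on the 23138 features that averaged 0.5 FPKM or more, adjusted by Benjamini-Hochberg. It had 2 residual and 2.14 prior degrees of freedom. Named genes were the 12 largest called increases and 8 largest decreases without overlap (6 existed), the 8 highest means and members with an annotated role. The members and lists were chosen with earlier results of these data known. Alternatives were the pseudocount, filter, scaling, prior trend, replicate block, minimum fold change, limma-voom on fragments, members without exonic overlap and leaving out each library. Other steps used Python 3.11.15, pandas 2.3.3, numpy 2.4.6 and matplotlib 3.10.9.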

Additional observations from a re-analysis of the deposited data

How the results depend on the processing

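The count of members higher in differentiation was 46, and lay between 32 and 59 under the 14 other settings of the fit. Over all features 6848 were higher, and between 2294 (minimum 1.5-fold) and 7559 (no filter) under the same settings. The 79 members without exonic overlap gave 30 higher and 3 lower, since fewer genes entered. The count of members lower in differentiation was 6, where 6246 of all features were lower. At a mean of at least 2 FPKM the member count became 2 (4760 of all features). It was 11 after quantile normalization (7601 of all features) and 10 after median centring (7266 of all features). At a minimum of 1.5-fold it was 0 (1176 of all features). In each fit that left out 1 library the member count was also smaller than in the main fit, and so was the count over all features. The median log2 fold change of the members tested was 0.67. It moved to 1.11 with a pseudocount of 0.1, 0.81 with 0.5, 0.54 after quantile normalization, 0.60 after median centring and 1.12 with limma-voom. With no filter, where all 118 members entered, it was 0.36. At a mean of at least 2 FPKM, where fewer members entered, it was 1.08. These settings change the scale or the members that enter, and no other cause of the shifts was tested. With the replicate number as a block, 47 members were higher and 5 lower (6510 and 5788 of all features). The deviations of same-numbered libraries had a correlation of -0.000408 across features, so no shared shift was seen. That value cannot show whether same-numbered libraries were prepared as pairs. The block also ended the call of 4930523C07Rik (adjusted p = 0.0571). Each alternative was read gene by gene for the named genes, and among those without a call the sign of the log2 fold change turned in 4930452B06Rik (-0.075 to 0.033 when 1 library was left out), 4930502E18Rik (-0.11 to 0.20 when 1 library was left out, -0.035 after quantile normalization and -0.030 after median centring), 4930550L24Rik (-0.093 to 0.065) and 4931409K22Rik (-0.16 to 0.035). The members below the filter rest on few fragments, and 2 libraries a group limit the precision of every value.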
